A study of Mus musculus with 23 samples.

Results

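The 33 genes described here are markers of the proximal tubule, the first part of the nephron after the glomerulus, measured in tubules that were dissected from the distal end of the nephron. They were listed by name from their known place of expression: carriers and channels of the proximal brush border and basolateral membrane, endocytic receptors, enzymes of proximal metabolism, and the transcription factor Hnf4a. The deposited tables hold 54393 genes. Of these, 25829 had enough counts to be tested, and 33 of the 33 proximal tubule genes were among them.

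The study used 23 RNA-seq libraries of microdissected mouse connecting tubule and collecting duct to separate the effect of dietary potassium from that of the mineralocorticoid receptor, the aldosterone receptor encoded by Nr3c2. Mice of all 4 groups carried Pax8-rtTA, TRE-LC-1 and MRflox/flox, that is, a doxycycline-dependent activator under the Pax8 promoter, a Cre transgene that this activator switches on, and floxed receptor alleles. For 2 weeks, knockout mice were given 5% sucrose water with doxycycline at 2 mg/ml, and then had 2 weeks without it on a rescue diet, whereas controls drank sucrose water alone. For the last 4 days, controls ate normal potassium (CT-NK, n = 5) or high potassium (CT-HK, n = 6), and knockouts ate normal potassium (KO-NK, n = 6) or low potassium (KO-LK, n = 6).

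Pax8 is active along the whole renal tubule, so the induced deletion need not be limited to the dissected segment. Every knockout comparison also compares doxycycline with no doxycycline, and the labels do not say whether controls ate the rescue diet, so these cannot be told apart from the deletion. The labels give no age, sex, dissection date or library batch. Nothing in them states that 1 library is 1 mouse, and the p-values are therefore set by the scatter among libraries, which may be technical.

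The proximal tubule reclaims most of the filtered sodium, glucose, phosphate, amino acids and small proteins, and it secretes organic anions such as drugs. It makes glucose, and it holds much of the kidney's cytochrome P450 activity. Its early, convoluted part is known for the high-capacity glucose carrier Slc5a2, the lactate carrier Slc5a12 and the neutral amino acid carrier Slc6a19, and its late, straight part for Slc7a13 and Slc6a18. In mice, Kap, the kidney androgen-regulated protein, is one of its most abundant transcripts. The genes described here are not known as products of the connecting tubule or collecting duct, with the caveat that Aqp1, Slc4a4, Ass1 and Gatm are also made by other cells of the kidney.

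Promoter letters of the set are shown first, as a description. Whether they bear on the levels below was not tested. HNF1 and HNF4 proteins are transcription factors known to bind promoters of proximal tubule genes. RefSeq promoters (GRCm38.p6) matched 27 of the 33 genes by symbol. The HNF1 half-site GTTAAT, searched on both strands over the 250 bases before each start site, was present in 7 of the 27 genes (25.9%), against 7.49% of all 27025 genes and 6.43% of all 32851 promoters of that length. The HNF4 core CAAAGT was present in 6 of the 27 genes (22.2%), against 14.1% of all genes and 12.6% of all promoters, and the longer CAAAGTCCA, which contains that core, in 1 of them, Slc3a1. A match is a description of the letters and not a bound site, and no binding was measured here. The 5 genes with GTTAAT within 100 bases of a start site are printed below, each as the 100 bases that end just before the start, 5′ to 3′ on the gene's strand, with the half-site (GTTAAT or its reverse, ATTAAC) in capitals.
Hnf4a, chr2:163547055-163547154, + strand: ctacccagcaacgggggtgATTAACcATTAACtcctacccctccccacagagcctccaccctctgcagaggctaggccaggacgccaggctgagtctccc
Slc34a1, chr13:55399548-55399647, + strand: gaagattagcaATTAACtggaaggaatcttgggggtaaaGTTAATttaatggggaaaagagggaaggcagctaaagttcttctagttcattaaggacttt
Slc22a6, chr19:8617896-8617995, + strand: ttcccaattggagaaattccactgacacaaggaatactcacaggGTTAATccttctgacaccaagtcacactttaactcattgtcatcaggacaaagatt
Slc22a8, chr19:8593082-8593181, + strand: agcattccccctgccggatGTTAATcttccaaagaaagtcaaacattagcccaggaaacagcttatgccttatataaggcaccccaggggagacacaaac
Slc7a7, chr14:54409473-54409572, - strand: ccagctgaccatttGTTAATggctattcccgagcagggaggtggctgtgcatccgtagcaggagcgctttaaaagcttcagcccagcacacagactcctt
The Hnf4a and Slc34a1 windows each held the half-site at 2 places, and the other windows held it once. Slc22a6 and Slc22a8, which encode organic anion transporters and lie close to each other on chromosome 19, both held it in the forward orientation.

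Library totals ran from 16158408 to 34154475 estimated counts (CPM below means counts divided by the library's total times its TMM factor, on a scale of 1e+06), and none of the 55 library pairs within groups was a repeat deposit. The collecting duct water channel Aqp2 ranked between the 21st and the 112th most abundant gene by TPM in every library. Nr3c2, the targeted gene, was at 66.5 to 151 CPM in the 11 control libraries and at 34.1 to 74.0 CPM in the 12 knockout libraries, so the ranges overlapped. Its lowest control values, 66.5 and 70.1 CPM, were in CT-NK replicate 5 and CT-HK replicate 6, which are also the libraries richest in proximal tubule genes. The Y-linked gene Ddx3y was at 22.6 to 56.5 CPM in every library and Xist at no more than 1.21 CPM.

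All 33 genes had at least 1 estimated count in every library. Their summed level was 8246, 836, 603, 8801 and 20274 CPM in CT-NK replicates 1 to 5. It ran from 363 to 37477 CPM (median 870) in CT-HK, from 1123 to 7073 (median 1655) in KO-NK and from 525.9 to 1986 (median 896) in KO-LK. The range was 103-fold over the 23 libraries, and the 4 richest (CT-HK replicate 6 and CT-NK replicates 5, 4 and 1) held 72.7% of the summed level of all libraries. These 4 were all controls, but 7 of the 11 control libraries lay at or below 1004 CPM and overlapped the KO-LK libraries.

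**Figure D1:**
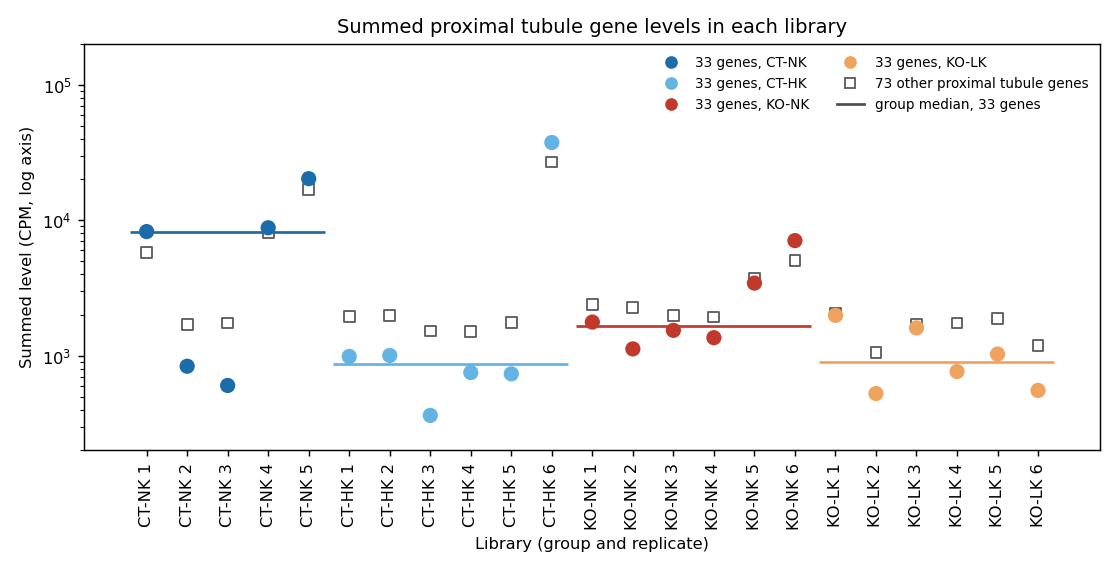
Summed level of the 33 proximal tubule genes (filled circles, coloured by group) and of 73 other proximal tubule genes (open squares) in each of the 23 libraries, in CPM on a log axis, with a line at each group's median for the 33 genes. CT-HK replicate 6 stands at 37477 CPM while the other 5 CT-HK libraries lie at or below 1004, and CT-NK falls into 3 high and 2 low libraries.

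As a group mean, the summed level was highest in CT-NK, at 7752 ± 8017 CPM (SD, n = 5), followed by CT-HK at 6886 ± 14988, KO-NK at 2717 ± 2287 and KO-LK at 1077 ± 597 CPM (SD, n = 6 each). Without replicate 6 the CT-HK mean was 768 ± 260 CPM (n = 5), below every other group. As shares of all counts, the 33 genes took between 0.0306% (CT-HK replicate 3) and 3.03% (CT-HK replicate 6). In bulk tubules such as these, fewer cells of a type and less RNA per cell cannot be told apart.

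The genes moved together from library to library. CT-HK replicate 6 was the highest library for 29 of the 33 and CT-NK replicate 5 for the other 4. For 29 genes these 2 libraries held the 2 highest levels, against 4.17% of all tested genes. The exceptions were Slc5a1, Slc22a12, Slc6a18 and Aqp1. Over the median of the other 22 libraries, CT-HK replicate 6 was between 7.68-fold (Slc5a1) and 83.1-fold (Slc7a13) higher, with a median of 27.4-fold. At the other end, CT-HK replicate 3 was the lowest library for 19 genes.

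**Figure D2:**
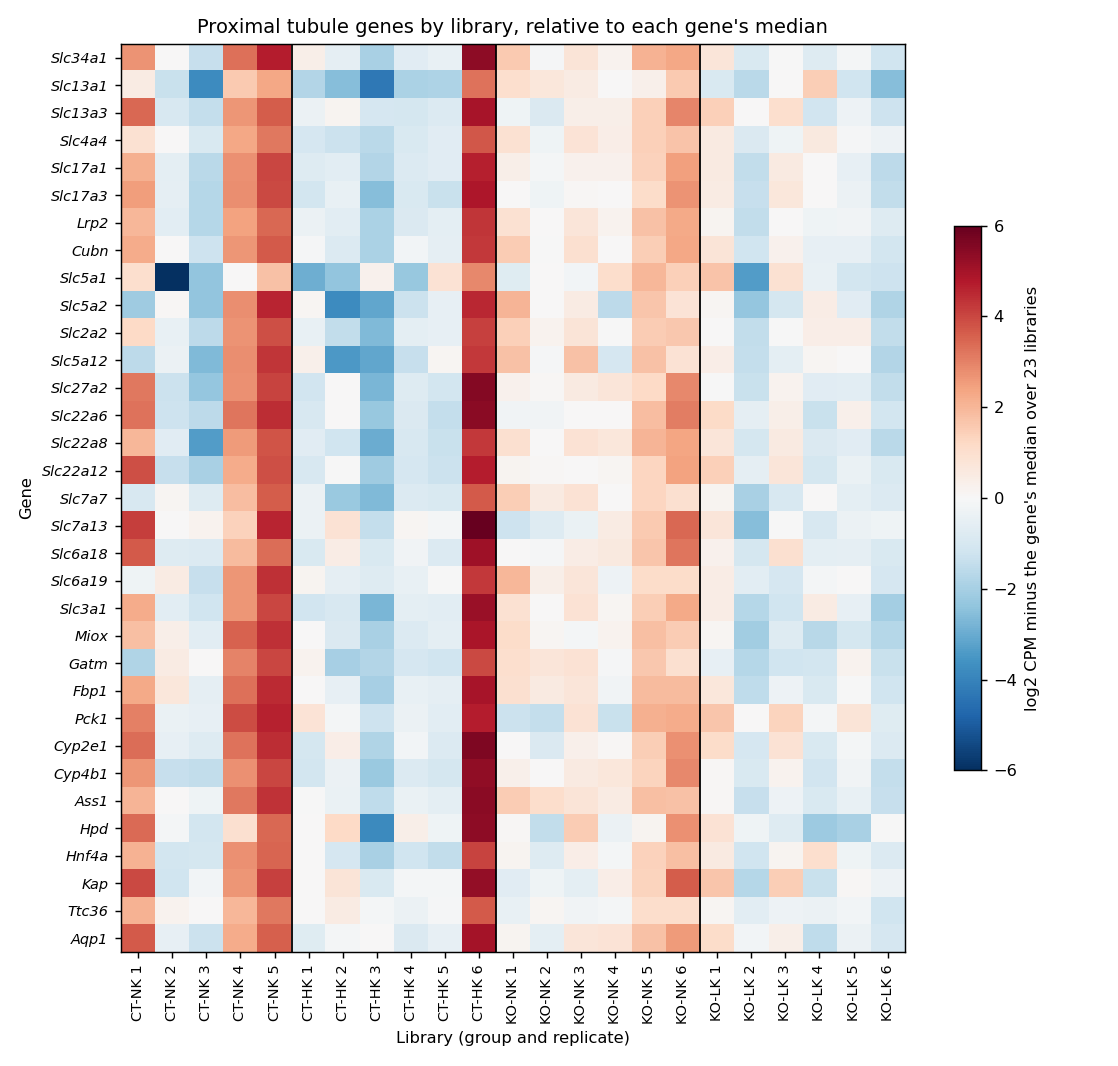
Level of each of the 33 genes (rows) in each library (columns, groups separated by lines), as log2 CPM minus the gene's own median over the 23 libraries. The columns of CT-HK replicate 6 and CT-NK replicate 5 are dark red for nearly every gene. CT-NK replicate 1 is red for most genes and lies below the median for Slc5a2, Slc5a12, Gatm, Slc6a19 and Slc7a7.

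By level per length, Kap led with a mean of 1349 TPM over all libraries, followed by Cyp4b1 at 290, Miox at 227, Slc34a1 at 161 and Fbp1 at 107. The order below Kap differed between groups: in CT-NK, Miox (mean 468 TPM) lay above Cyp4b1 (435), and in KO-LK, Pck1 (53.0) lay above Miox (45.5), Slc34a1 (39.8) and Fbp1 (33.2). Kap, which lies at chr6:133849851-133853762 (GRCm38.p6, - strand), was at 2881, 80.3, 161, 1131 and 3097 CPM in CT-NK replicates 1 to 5. It ran from 95.8 to 7068 CPM (median 176) in CT-HK, from 114 to 2272 (median 198) in KO-NK and from 56.6 to 585 (median 167) in KO-LK. In CT-HK replicate 6 it was the 13th most abundant gene of the library by TPM, ahead of Aqp2 at rank 43. In KO-LK replicate 2 it ranked 861st. The groups overlapped throughout.

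Among the anion and bicarbonate carriers, Slc34a1, the sodium-phosphate cotransporter of the brush border (ENSMUSG00000021490, chr13:55398187-55415592), was at 701, 107, 41.7, 1055 and 2779 CPM in CT-NK. In CT-HK it ran from 27.8 to 4416 CPM (median 75.2), in KO-NK from 104 to 538 (median 253), and in KO-LK from 46.9 to 180 (median 80.5). CT-NK replicate 2 thus lay within the range of KO-LK, and replicate 3 below it. Slc17a1, an organic anion and phosphate carrier, was at 78.8, 11.7, 5.80, 118 and 285 CPM in CT-NK. Its medians were 10.7 CPM in CT-HK (5.21 to 457), 22.2 in KO-NK (16.3 to 97.6) and 15.3 in KO-LK (6.09 to 26.4). The neighbouring Slc17a3, the sulfate carrier Slc13a1, the dicarboxylate carrier Slc13a3 and the bicarbonate carrier Slc4a4 had CT-HK medians of 7.46, 7.28, 7.93 and 14.3 CPM and single highest values of 441, 256, 356 and 375 CPM, all in CT-HK replicate 6. Slc13a1 stood apart in KO-LK, where replicate 4 was at 72.98 CPM and the next library at 26.9.

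The endocytic receptors Lrp2 (megalin) and Cubn (cubilin), which take up filtered proteins, behaved alike. Lrp2 was at 119, 19.2, 9.11, 155 and 317 CPM in CT-NK, with medians of 19.2 CPM in CT-HK (8.01 to 586), 53.0 in KO-NK (30.5 to 143) and 25.4 in KO-LK (10.8 to 32.8). Cubn was at 38.0, 7.998, 3.40, 49.4 and 103 CPM in CT-NK, and its medians were 6.28 CPM in CT-HK (2.12 to 153), 18.9 in KO-NK (7.82 to 39.4) and 5.72 in KO-LK (3.53 to 13.7). For both receptors CT-NK replicates 2 and 3 lay within or below the KO-LK range.

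The sodium-glucose carrier Slc5a2 did not rank the CT-NK libraries as Slc34a1 and Lrp2 did. Slc5a2 was at 5.29, 24.1, 4.396, 161 and 549 CPM in CT-NK, so replicate 1, rich in Kap and Slc34a1, was nearly as poor in Slc5a2 as replicate 3. In the other groups Slc5a2 ran from 1.65 to 533 CPM (CT-HK, median 12.8), from 7.66 to 94.6 (KO-NK, median 36.7) and from 4.65 to 31.0 (KO-LK, median 12.6). Slc2a2, the basolateral glucose exit carrier, was at 14.6, 4.63, 2.12, 41.1 and 92.1 CPM in CT-NK, and had medians of 4.39 CPM in CT-HK (1.01 to 108), 14.0 in KO-NK (6.17 to 19.6) and 6.27 in KO-LK (2.25 to 8.35). Slc5a1, the high-affinity glucose carrier, was the lowest of the set by TPM. It was also among those with the fewest counts, from 0.0613 CPM (2 estimated counts) in CT-NK replicate 2 to 35.7 CPM in CT-HK replicate 6. In CT-HK replicates 3 and 5 Slc5a1 was at 5.89 and 8.80 CPM, against 0.647 to 0.994 in replicates 1, 2 and 4. Summed markers of the thick ascending limb, another nephron segment, were at 1470 and 1495 CPM in replicates 3 and 5. They were at 182 to 229 CPM in replicates 1, 2 and 4, and at 739 in replicate 6. Whether some Slc5a1 came from that segment was not tested.

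Slc27a2, a fatty acid carrier and acyl-CoA synthetase, was at 605, 28.0, 13.3, 452 and 1110 CPM in CT-NK, with medians of 35.6 CPM in CT-HK (10.2 to 3077), 106 in KO-NK (71.8 to 490) and 42.6 in KO-LK (24.4 to 78.3). Slc5a12 was at 1.67, 3.83, 0.799, 34.2 and 97.6 CPM in CT-NK. Its range was 0.455 to 94.0 CPM in CT-HK (median 3.63), 2.48 to 16.7 in KO-NK (median 12.8) and 1.47 to 6.52 in KO-LK (median 4.14). CT-NK replicate 1 was therefore the second highest of its group for the one and the second lowest for the other.

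Of the organic anion transporters, which secrete drugs and toxins, Slc22a8 was at 103, 16.5, 2.56, 154 and 357 CPM in CT-NK, and had medians of 12.4 CPM in CT-HK (3.33 to 497), 49.2 in KO-NK (26.2 to 137) and 15.4 in KO-LK (8.54 to 42.9). Slc22a6 was at 158, 6.96, 5.48, 153 and 355 CPM in CT-NK, with medians of 8.73 CPM in CT-HK (3.38 to 711), 16.5 in KO-NK (14.2 to 138) and 15.7 in KO-LK (6.56 to 36.2). The lowest KO-NK value of Slc22a8 lay above 5 of the 6 CT-HK libraries. The urate carrier Slc22a12 ran from 2.22 to 256 CPM, both in CT-HK.

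Among amino acid carriers, Slc7a13, the cystine carrier of the late segment (ENSMUSG00000041052, chr4:19818725-19842218), was at 107, 6.07, 7.07, 15.6 and 144 CPM in CT-NK. It ran from 2.22 to 499.6 CPM in CT-HK (median 6.10), from 2.55 to 66.5 in KO-NK (median 6.51) and from 1.02 to 9.95 in KO-LK (median 4.98). Slc3a1, the heavy chain of a cystine carrier, was at 41.0, 5.61, 3.88, 55.8 and 140 CPM in CT-NK, and had medians of 5.11 CPM in CT-HK (1.303 to 318), 16.2 in KO-NK (8.80 to 43.0) and 5.10 in KO-LK (2.11 to 12.5). All 4 groups overlapped for both. Over all libraries Slc6a18 ran from 3.16 to 225 CPM, Slc6a19 from 6.63 to 354 and the basolateral Slc7a7 from 1.40 to 112.

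The enzymes included the most abundant genes after Kap. Cyp4b1, a cytochrome P450, was at 1087, 67.8, 61.9, 1168 and 2838 CPM in CT-NK, with medians of 91.0 CPM in CT-HK (37.4 to 7046), 267 in KO-NK (175 to 1282) and 120 in KO-LK (65.5 to 201). Miox, which opens the ring of myo-inositol (ENSMUSG00000022613, chr15:89334398-89337015), was at 252, 92.0, 46.5, 851 and 1501 CPM in CT-NK. Its range was 19.1 to 2166 CPM in CT-HK (median 45.2), 68.0 to 257 in KO-NK (median 120) and 17.1 to 78.4 in KO-LK (median 29.3). In KO-LK, 5 of the 6 libraries were below the lowest CT-NK library, and the sixth lay within the CT-NK range. Ass1, argininosuccinate synthase of arginine synthesis (ENSMUSG00000076441, chr2:31470207-31520672), was at 137, 33.4, 27.6, 299 and 683 CPM in CT-NK. It ran from 11.5 to 1445 CPM in CT-HK (median 25.5), from 47.2 to 117 in KO-NK (median 82.3) and from 12.9 to 34.6 in KO-LK (median 21.3). All KO-NK libraries were above all KO-LK libraries for Ass1, and it was the 1 gene of the 33 whose levels separated any pair of groups. Of all tested genes, 0.166% were likewise higher in KO-NK than in KO-LK without overlap.

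Fbp1, fructose bisphosphatase of gluconeogenesis (ENSMUSG00000069805, chr13:62864753-62888282), was at 210, 69.9, 29.7, 427 and 976 CPM in CT-NK, and had medians of 31.6 CPM in CT-HK (11.1 to 1339), 78.8 in KO-NK (37.9 to 165) and 29.7 in KO-LK (15.4 to 69.1). Cyp2e1, the ethanol-oxidising P450 (ENSMUSG00000025479, chr7:140763739-140774987), was at 313, 21.6, 17.7, 293 and 647 CPM in CT-NK, with medians of 22.4 CPM in CT-HK (8.64 to 1458), 35.1 in KO-NK (16.8 to 202) and 22.8 in KO-LK (15.3 to 66.1). Both overlapped between all groups. Pck1, which commits carbon to gluconeogenesis, ran from 30.1 CPM in KO-NK replicate 2 to 2133 in CT-HK replicate 6, and Gatm, which makes the creatine precursor, from 6.70 to 429. Hpd of tyrosine breakdown was low, at 0.0482 to 28.2 CPM, and had as few as 1 estimated count in a library.

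Hnf4a, the nuclear receptor that maintains proximal identity (ENSMUSG00000017950, chr2:163506808-163572910), was at 36.9, 4.08, 4.28, 59.1 and 99.6 CPM in CT-NK. It ran from 2.32 to 144 CPM in CT-HK (median 4.11), from 5.16 to 31.1 in KO-NK (median 10.8) and from 3.89 to 17.9 in KO-LK (median 8.55). In the controls the regulator was thus high in the libraries rich in the transport genes. Within KO-LK it was highest in replicate 4, where the 33 genes summed to 764 CPM. It was at 12.7 CPM in KO-LK replicate 1, where they summed to 1986 CPM. Ttc36 (ENSMUSG00000039438, chr9:44799397-44803072) was at 104, 28.4, 24.4, 98.0 and 216 CPM in CT-NK, and had medians of 23.6 CPM in CT-HK (19.1 to 316), 24.4 in KO-NK (18.1 to 51.0) and 19.0 in KO-LK (10.5 to 26.5). Aqp1, the water channel of proximal tubule and thin descending limb, was at 37.0, 2.02, 1.16, 13.4 and 34.4 CPM in CT-NK, with medians of 2.32 CPM in CT-HK (1.56 to 89.7), 4.92 in KO-NK (1.92 to 16.5) and 2.41 in KO-LK (0.991 to 6.12).

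The mix of early and late proximal genes differed between libraries. As a description, chosen after the values were seen, the summed TPM of the late genes Slc7a13 and Slc6a18 was divided by that of the early genes Slc5a2, Slc5a12, Slc6a19 and Slc2a2. The ratio was 5.65 in CT-NK replicate 1, against 0.129 and 0.227 in CT-NK replicates 4 and 5. It was 0.809 in CT-HK replicate 6 and 1.52 in KO-NK replicate 6, and 0.0562 in KO-NK replicate 1. Within each group it ranged from 0.129 to 5.65 (CT-NK), 0.203 to 1.39 (CT-HK), 0.0562 to 1.52 (KO-NK) and 0.127 to 0.641 (KO-LK), so all groups overlapped. Kap was at 53.7 and 47.3 CPM per 100 CPM of the other 32 genes in CT-NK replicate 1 and KO-NK replicate 6, the libraries with the highest ratios, and at 6.89 in KO-NK replicate 1, the library with the lowest. Between these extremes it did not follow the ratio throughout. It was at 46.4 in KO-LK replicate 3 (ratio 0.641) and at 41.8 in KO-LK replicate 1 (0.324).

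**Figure D3:**
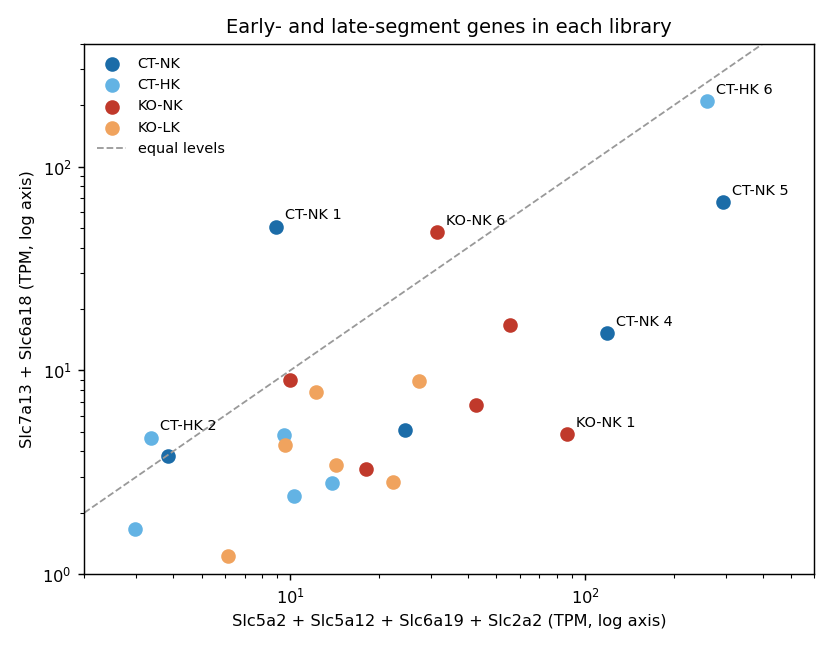
Summed TPM of the late-segment genes Slc7a13 and Slc6a18 against that of the early-segment genes Slc5a2, Slc5a12, Slc6a19 and Slc2a2, 1 point for each library, both axes logarithmic, with a dashed line of equal levels. CT-NK replicate 1 lies above the line at a ratio of 5.65, and CT-NK replicates 4 and 5 lie below it at 0.129 and 0.227.

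Markers of other cells moved with the 33 genes in some libraries and not in others. Summed connecting tubule and principal cell markers, led by S100g and Aqp2, were at 12840, 12083 and 14486 CPM in CT-NK replicates 4 and 5 and CT-HK replicate 6, below the other 8 control libraries, which lay at 18146 to 33242. All 12 knockout libraries, at 6108 to 16286 CPM, were also below those 8. The mitochondrially encoded share of counts was 10.8% to 21.4% in the controls and 7.93% to 13.4% in the knockouts, so it overlapped. For the summed connecting tubule and principal cell markers, CT-NK replicate 1, with 8246 CPM of proximal genes, was at 20912 CPM. Summed podocyte markers were at 289 CPM in CT-NK replicate 5, 238 in CT-HK replicate 6 and 337 in KO-NK replicate 3, and at 40.01 to 103 in the other 20 libraries. KO-NK replicate 3 held only 1540 CPM of proximal genes. The distal convoluted tubule carrier Slc12a3 was at 600 and 334 CPM in CT-NK replicate 5 and CT-HK replicate 6, but at 980 in KO-NK replicate 5 and 599 in KO-LK replicate 2, which held 3437 and 525.9 CPM of proximal genes. The part of any of these in the group differences was not tested.

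Each group was then compared with the others in 1 model of all 23 libraries with edgeR's quasi-likelihood test, with p-values adjusted by the Benjamini-Hochberg method over all 25829 tested genes and a threshold of 0.05. The comparisons share control and knockout groups, so their values are set side by side and are not independent of each other.

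For receptor deletion on normal potassium, KO-NK against CT-NK, 0 of the 33 genes passed, against 1.70% of all tested genes called in either direction. The log2 fold changes were negative for 32 genes, with a median of -1.39 against 0.15 over all tested genes, and 2 genes had an unadjusted p under 0.05. DESeq2 also called 0. Without CT-HK replicate 6 edgeR called 1, and the share of all tested genes called in that fit is not reported here. The smallest adjusted p was 0.30, for Ttc36 (log2 fold change -1.58 ± 0.65 SE).

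For KO-LK against CT-NK, which differ in receptor and diet, 0 of the 33 passed in edgeR, against 2.04% of all tested genes. All 33 log2 fold changes were negative (median -2.65 against -0.04 over all genes) and 31 had an unadjusted p under 0.05. DESeq2 called 10 of them lower, against 4.76% of its tested genes. The nearest to the threshold was Miox, at -3.91 ± 1.07 (SE, edgeR adjusted p = 0.057). Without CT-HK replicate 6, a library that is in neither group but enters the shared estimate of spread, the median was again -2.65 and 22 genes were called lower, against 2.55% of all tested genes called lower in that fit. Among them were Ass1 (-3.45, edgeR adjusted p = 0.0015), Miox (-3.91, adjusted p = 0.0018), Ttc36 (-2.33, adjusted p = 0.0024) and Slc34a1 (-3.35, adjusted p = 0.0083). Without CT-NK replicate 5, 0 were called and the median was -1.87. The count was 2 without CT-NK replicate 3. It was 1 when replicate 2 of CT-NK, replicate 2, 3 or 4 of CT-HK, or replicate 3 of KO-NK was left out. The share of all tested genes called in these last fits is not reported here, so their counts show only how far the fits differ.

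For high against normal potassium in control mice, CT-HK against CT-NK, edgeR and DESeq2 each called 0 of the 33, and edgeR called 0% of all tested genes. No gene of the 33 had an unadjusted p under 0.05, the median log2 fold change was -0.23, and 24 were negative. This comparison turned on 1 library of each side. Without CT-HK replicate 6 all 33 were negative with a median of -3.25, and 21 were called lower against 0.637% of all tested genes, for example Slc34a1 at -3.62 (edgeR adjusted p = 0.04) and Miox at -3.62 (adjusted p = 0.04). Without CT-NK replicate 5 the median was 0.58, 31 of 33 were positive and 0 were called. With both left out the median was -2.51 and 0 were called.

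For normal against low potassium in knockout mice, KO-NK against KO-LK, edgeR called 0 of the 33 and 0% of all tested genes. All 33 log2 fold changes were positive, with a median of 1.46 against 0.13 over all genes. None had an unadjusted p under 0.05 in edgeR, and DESeq2 called 0. Leaving out any of the 23 libraries did not bring a call here. The largest were Miox (1.97 ± 0.97 SE) and Ass1 (1.94 ± 0.96), both with an edgeR adjusted p of 0.93.

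For KO-NK against CT-HK, 0 of the 33 passed in edgeR and in DESeq2, against 5.78% of all tested genes in edgeR. The median was -1.25, with 32 negative and none at an unadjusted p under 0.05. Without CT-HK replicate 6 the direction turned: all 33 were positive, with a median of 1.89, and Slc13a1 (2.99, edgeR adjusted p = 0.025), Slc22a8 (2.64, adjusted p = 0.046) and Slc4a4 (2.04, adjusted p = 0.019) were called higher, against 2.18% of all tested genes called higher in that fit.

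For KO-LK against CT-HK, the pair that differs most in receptor and potassium, 2 of the 33 passed, both lower, against 3.29% of all tested genes called lower. Ass1 was lower by a log2 fold change of -3.59 ± 1.03 (SE, edgeR adjusted p = 0.039) and Miox by -3.45 ± 1.03 (adjusted p = 0.049). All 33 were negative, with a median of -2.40, and 24 had an unadjusted p under 0.05. DESeq2 called 15 lower, against 9.49% of its tested genes. Both calls were lost without CT-HK replicate 6, where the median of the 33 was 0.49, Ass1 was at -0.12 and Miox at -0.29. They were also lost without any 1 of the 6 KO-LK libraries. Of the 33 genes, 4 were called without CT-HK replicate 4. A single gene was called when replicate 1 or 4 of CT-NK, or replicate 1, 2, 4 or 5 of KO-NK, was left out. As the share of all tested genes called in these fits is not reported here, the counts show only how far the fits differ.

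With the 2 knockout groups set against the 2 control groups, 7 of the 33 fell, against 5.86% of all tested genes called lower. They were Ttc36 (-1.77 ± 0.46 SE, edgeR adjusted p = 0.012), Miox (-2.69 ± 0.71, 0.015), Ass1 (-2.55 ± 0.70, 0.020), Slc7a13 (-2.92 ± 0.86, 0.029), Fbp1 (-2.33 ± 0.69, 0.029), Slc34a1 (-2.41 ± 0.75, 0.038) and Cyp2e1 (-2.46 ± 0.79, 0.046). By role these were 4 of the 8 metabolic enzymes, 1 of the 6 anion and bicarbonate carriers, 1 of the 5 amino acid carriers and Ttc36. None of the glucose carriers, endocytic receptors, organic anion transporters or lactate and fatty acid carriers passed. All 33 were negative, with a median of -1.94 against 0.09 over all tested genes, and 29 had an unadjusted p under 0.05. DESeq2 called 21 lower, where 10.1% of its tested genes were.

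The count of 7 fell to 1 or 2 when either of 2 control libraries was left out. Without CT-HK replicate 6, 1 gene was called, Ttc36, at -0.98 (edgeR adjusted p = 0.031), against 5.12% of all tested genes called lower in that fit, and the median was -0.35. Without CT-NK replicate 5, Miox (-2.28, adjusted p = 0.045) and Ttc36 (-1.49, adjusted p = 0.04) were called, against 4.33% of all tested genes called lower. With both left out, a setting chosen after the data were seen, 0 were called by edgeR with 2 at an unadjusted p under 0.05. The median was then -0.05, with 16 genes positive and 17 negative. Of other single libraries, 3 genes were called without KO-NK replicate 4 and 4 without KO-LK replicate 4. The count was 11 to 14 when replicate 2 or 3 of CT-NK, 3, 4 or 5 of CT-HK, or 6 of KO-NK was left out. For these other libraries the share of all tested genes called is not reported here, so the counts show only how far the fits differ.

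**Figure D4:**
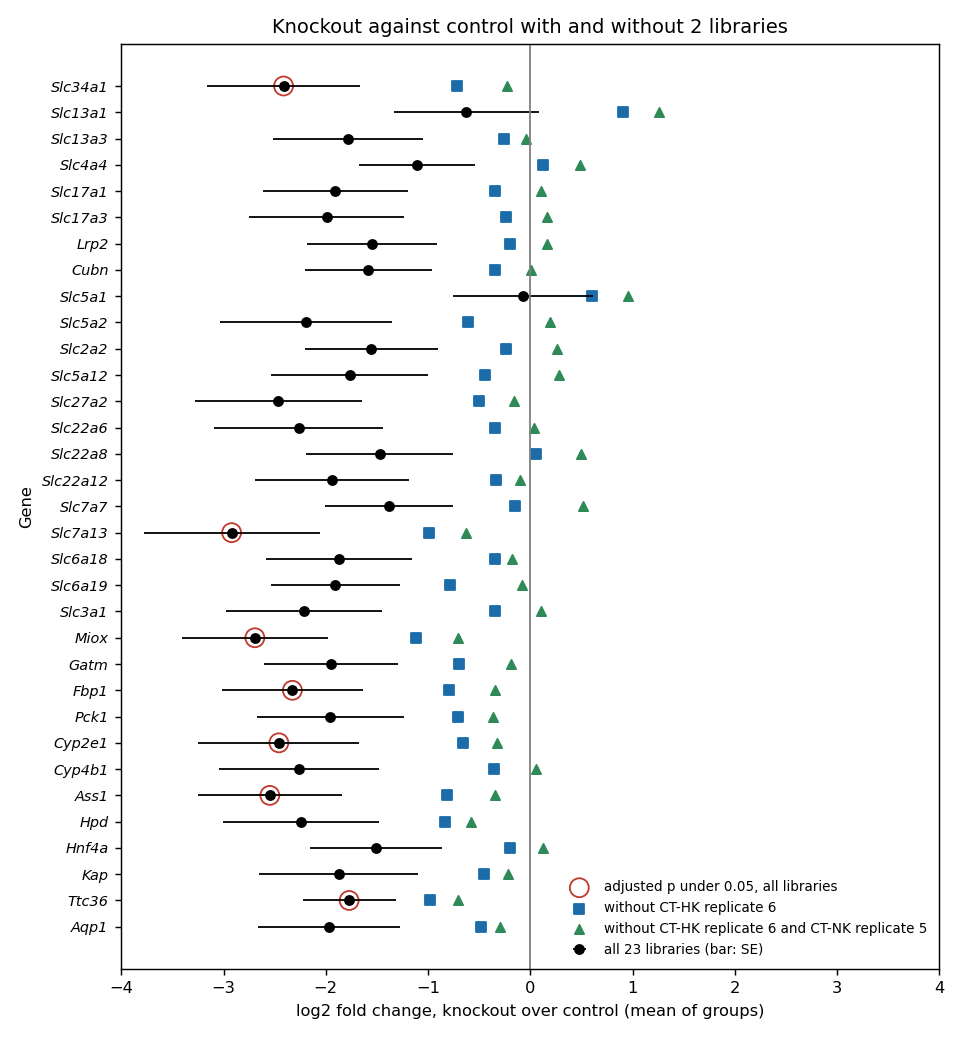
Log2 fold change of each of the 33 genes, knockout over control groups, from the fit of all 23 libraries (black points, bars are the SE, red rings mark an adjusted p under 0.05), without CT-HK replicate 6 (blue squares), and without that library and CT-NK replicate 5 (green triangles). The medians are -1.94, -0.35 and -0.05.

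Other genes of the proximal tubule were read from a list of 73 found in the tables, none of them among the 33. In KO-LK against CT-HK 6 of the 73 fell, against 3.29% of all tested genes called lower. In KO-NK against CT-HK 3 fell and in KO-LK against CT-NK 2, against 5.78% and 2.04% called in either direction. These last 2 counts were near those shares, and none passed in the other 3 comparisons. In the knockout against control comparison 22 of the 73 fell and none rose, with a median of -1.56, against 5.86% of all tested genes called lower. Acsm2, an acyl-CoA synthetase, fell by 2.59 (edgeR adjusted p = 0.032), Keg1 by 2.08 (adjusted p = 0.041) and Khk, the fructose kinase, by 1.22 (adjusted p = 0.043). Cltrn did not pass, at -1.61. CT-HK replicate 6 and CT-NK replicate 5 were also the richest in these 73 genes, at 26944 and 16944 CPM. Fits of the list without those libraries are not reported here.

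Some genes of that list were called in several comparisons. Sord, sorbitol dehydrogenase, fell in KO-NK against CT-HK (-1.33, edgeR adjusted p = 0.019), in KO-LK against CT-NK (-1.76, adjusted p = 0.0078) and in KO-LK against CT-HK (-1.88, adjusted p = 0.0013). Its level was 191 CPM or more in every control library and 97.5 to 284 CPM in the knockouts. Acsm3 fell in KO-NK against CT-HK (-3.56, adjusted p = 0.026), as did Nudt19 (-1.14, adjusted p = 0.026). Prodh (-1.58), Aadat (-3.49), Hao2 (-2.49), Slc37a4 (-1.59) and Acsm3 (-3.62) were lower in KO-LK against CT-HK, with adjusted p-values from 0.0021 to 0.048. Over the list, the summed level never went below 1059 CPM (KO-LK replicate 2), whereas that of the 33 genes went down to 363. In CT-HK replicate 3, the library with that lowest value, the list summed to 1521 CPM. The list thus did not fall as far as the 33 genes. Whether part of its level, that of Sord included, came from other cells than the proximal tubule was not tested.

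The summed level of these 73 genes was also entered into the model as a covariate meant to stand for each library's proximal content. With it, the knockout against control comparison called 10 of the 33 higher, against 3.84% of all tested genes called higher, and 1 lower. The higher ones were Slc13a1 (1.95 ± 0.40 SE, edgeR adjusted p = 0.002), Slc22a8 (1.23 ± 0.29, 0.0075), Slc4a4 (0.90 ± 0.17, 0.0012), Slc22a6 (0.88), Cyp4b1 (0.87), Slc2a2 (0.86), Hnf4a (0.83), Slc17a3 (0.81), Lrp2 (0.80) and Slc17a1 (0.74). The lower one was Ttc36 (-0.38 ± 0.11, adjusted p = 0.034). The ratio of the 33 genes to the 73 was itself not constant: it was 0.238 in CT-HK replicate 3, 0.417 to 0.508 in the other low CT-HK libraries, and 1.39 in CT-HK replicate 6. It ran from 0.346 to 1.43 in CT-NK, from 0.496 to 1.39 in KO-NK and from 0.439 to 0.962 in KO-LK, so all groups overlapped. Its part in these 11 calls was not tested. Some of the 73 genes were themselves called lower in knockout against control. The covariate is therefore not independent of that comparison, and the 11 calls cannot be read as changes apart from proximal content.

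Levels relative to the rest of the set, in CPM per 100 CPM of the other 32 genes, describe the mix within each library. Ass1 was at 2.62 to 4.01 in CT-HK and at 1.70 to 2.52 in KO-LK, and Miox was at 4.17 to 7.99 in CT-HK and at 2.75 to 4.13 in KO-LK. Neither overlapped between these groups, for Miox by a narrow margin. Of all tested genes, 3 (0.0116%) were likewise lower, Ass1 and Miox among them. Ass1 and Miox were as low as in KO-LK in CT-NK replicate 1 (1.69 and 3.15) and in KO-NK replicate 6 (1.63 and 3.09), the libraries with the most late-segment mix. In the KO-LK libraries the ratio of late to early genes was 0.127 to 0.641. CT-HK replicate 2, at a ratio of 1.39, was at 2.62 for Ass1 and 4.17 for Miox. Kap, which was high in CT-NK replicate 1 and KO-NK replicate 6, is part of the divisor. The part of the segment mix or of Kap in these values was not tested. Slc22a8 was at 1.98 to 3.22 in KO-NK, above all 6 CT-HK libraries (0.926 to 1.82), as were 0.0348% of all tested genes. Slc5a1 was at 0.166 to 0.755 in KO-NK, above the 5 CT-NK libraries (0.00733 to 0.159), again by a narrow margin. Likewise higher there were 0.0387% of all tested genes. Summed thick ascending limb markers were at 247 to 2789 CPM in KO-NK and 171 to 1128 in CT-NK, and their part was not tested. The divisor varied 103-fold between libraries, so genes that do not follow the set can hardly separate groups on this scale. The shares given here are therefore no measure of how rare such a separation is.

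Pck1, whose transcription is known to respond to acid-base state and fasting, was at 8.47, 7.97, 10.5, 15.7 and 10.7 CPM per 100 CPM of the other 32 genes in CT-NK, and at 6.03 to 16.8 in CT-HK. In KO-NK it was at 1.90, 2.76 and 2.43 in replicates 1, 2 and 4 and at 10.6, 11.5 and 5.59 in replicates 3, 5 and 6. In KO-LK it was at 9.76 to 18.1. The groups overlapped, and the level of Pck1 in KO-NK against KO-LK did not pass (0.28 ± 0.97 SE, edgeR adjusted p = 0.96).

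**Figure D5:**
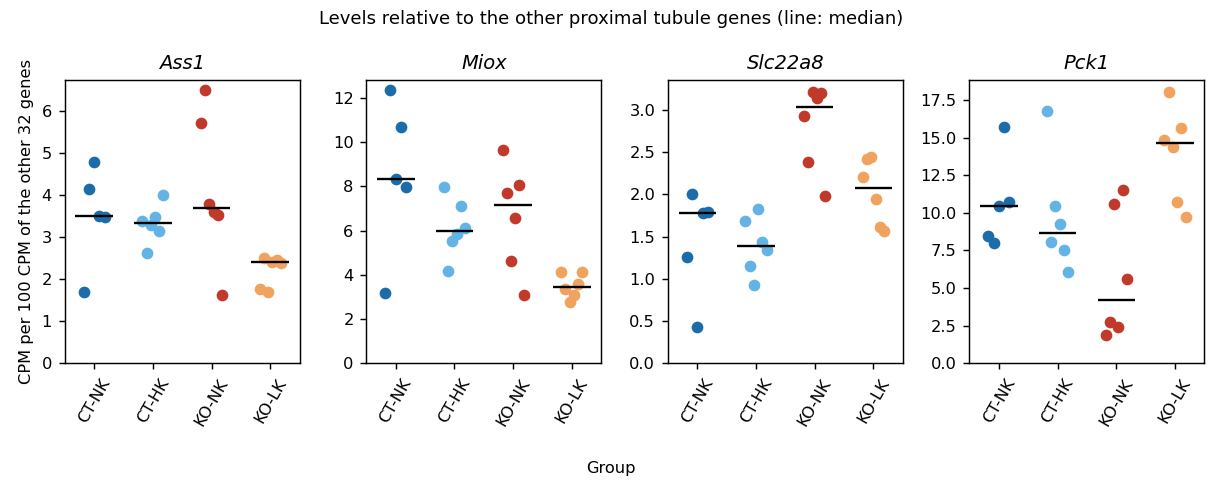
Level of Ass1, Miox, Slc22a8 and Pck1 in each library, in CPM per 100 CPM of the other 32 genes, by group, with a line at each median. Ass1 and Miox in KO-LK lie below all CT-HK libraries, Slc22a8 in KO-NK lies above them, and Pck1 in KO-NK splits into 3 libraries at or below 2.76 and 3 at or above 5.59.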

How the data were processed

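RNA-seq was measured in 23 libraries of dissected mouse tubules. The authors deposited 2 tables of the whole series, estimated counts for each gene and TPM, made with Salmon (listed as 0.14.10) on GRCm38.p6, per the submitters' processing notes. The role of each table was read from its values: 35.9% of the estimated counts were not whole numbers, and they were rounded. Gene positions came from GENCODE vM21. Rounded counts were scaled by TMM factors, genes with low counts were removed with filterByExpr, and 25829 of 54393 genes were tested with edgeR 4.0.16 (glmQLFit and glmQLFTest, R 4.3.3) in 1 model with a mean for each of 4 groups. The common biological coefficient of variation was 0.563 and 19 residual degrees of freedom remained. A gene was called at a Benjamini-Hochberg adjusted p under 0.05. TPM served for ranks and for levels between genes. Salmon assigns reads to transcripts without regard to the cell of origin, and the strand of each read is not used here.

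Alternatives were DESeq2 1.42.0, other scalings and filters, limma 3.58.1 on log2(TPM + 1) and log2(TPM + 0.1), a replicate block, a proximal content covariate, only the groups compared, and each library left out. The 33 genes and all lists were chosen with earlier results of these data known. Every one of the 33 is named. Those described by library are the 1 or 2 of highest TPM for each role, any called gene, and Hnf4a, Kap and Aqp1. Of the 73 other proximal genes, the 8 of highest TPM and up to 8 called in 2 or more comparisons were chosen for naming, and some of the genes so chosen are not reported here. The scripts were tested on simulated data.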

Additional observations from a re-analysis of the deposited data

Results flagged for a closer look

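A library was set apart where its gap to the nearest of its group exceeded Dixon's limit for the group's size. This was done for 34 values (the 33 genes and their sum) in 4 groups, 136 checks, and 49 passed. The limit is set to flag about 1 in 20 groups of normally distributed values by chance. CPM here were skewed to high values, so the chance rate is not known. The 33 genes also move together, so the flags are not independent of each other.

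CT-HK replicate 6 stood apart for all 33 genes and for their sum, 37477 CPM against 1004 in the next library. Among anion and bicarbonate carriers it was at 4416 CPM for Slc34a1, 256 for Slc13a1, 356 for Slc13a3, 375 for Slc4a4, 457 for Slc17a1 and 441 for Slc17a3. Among receptors it was at 586 CPM for Lrp2 and 153 for Cubn. The glucose, lactate and fatty acid carriers were at 35.7 CPM for Slc5a1, 533 for Slc5a2, 108 for Slc2a2, 94.0 for Slc5a12 and 3077 for Slc27a2. The organic anion and urate transporters were at 711 CPM for Slc22a6, 497 for Slc22a8 and 256 for Slc22a12. The amino acid carriers were at 112 CPM for Slc7a7, 499.6 for Slc7a13, 225 for Slc6a18, 327 for Slc6a19 and 318 for Slc3a1. The enzymes were at 2166 CPM for Miox, 412 for Gatm, 1339 for Fbp1, 2133 for Pck1, 1458 for Cyp2e1, 7046 for Cyp4b1, 1445 for Ass1 and 28.2 for Hpd. Hnf4a was at 144 CPM, Kap at 7068, Ttc36 at 316 and Aqp1 at 89.7.

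KO-NK replicate 6 stood apart, always as the highest library, for 11 genes: Slc13a3 at 87.1 CPM, Slc17a1 at 97.6, Slc17a3 at 98.8, Slc27a2 at 490, Slc22a6 at 138, Slc22a12 at 52.5, Slc7a13 at 66.5, Slc6a18 at 60.7, Cyp2e1 at 202, Cyp4b1 at 1282 and Kap at 2272. The early-segment carriers Slc5a2, Slc5a12 and Slc6a19 were not among them. CT-NK replicate 5 stood apart for 3 genes, Slc5a2 at 549 CPM, Slc7a7 at 109 and Slc6a19 at 354, and KO-LK replicate 4 for Slc13a1 at 72.98 CPM.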

How the results depend on the processing

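Counts of the 33 genes called moved with the test. Except where given in the comparisons above, the share of all tested genes called in these fits is not reported here. The counts therefore describe only how far the settings differ. For knockout against control (7 lower), DESeq2 called 21 lower, a filter of 5 CPM in 5 libraries 17, limma on log2(TPM + 1) and on log2(TPM + 0.1) 0 each, the covariate 10 higher and 1 lower (11 in all), and the fit without the 2 richest libraries 0. For KO-LK against CT-HK (2 lower) these gave 15, 8, 0, 0, 6 higher and 0, and only the groups compared gave 0. For KO-LK against CT-NK (0) they gave 10, 7, 1, 1, no change and 4, and only the groups compared gave 7. For KO-NK against CT-HK (0), limma on log2(TPM + 0.1) gave 1 higher, the covariate 10 higher and the fit without the 2 richest libraries 8 higher. For KO-NK against CT-NK (0) the covariate gave 1 higher, Lrp2 at 0.94. Of the 7 genes called in knockout against control, the covariate turned 4 positive: Slc34a1 to 0.51, Cyp2e1 to 0.39, Ass1 to 0.27 and Fbp1 to 0.17. Over all 33, 29 were positive with it. The cause was not tested. Leaving out 1 library at a time gave 1 to 14 calls for knockout against control, 0 to 4 for KO-LK against CT-HK, 0 to 22 for KO-LK against CT-NK, 0 to 21 for CT-HK against CT-NK, 0 to 3 for KO-NK against CT-HK, 0 to 1 for KO-NK against CT-NK and 0 for KO-NK against KO-LK. The mean summed level then ran from 768 to 8191 CPM in CT-HK, 4622 to 9539 in CT-NK, 896 to 1188 in KO-LK and 1846 to 3036 in KO-NK.

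Same-numbered libraries of different groups did not deviate together (33 pairs, r from -0.70 to 0.71, median -0.15, 10 pairs over 0.1), and 0 libraries correlated best with their own number. The replicate block therefore pairs nothing known: with it 2 genes were called lower in knockout against control, 0 in KO-LK against CT-HK and 1 in KO-LK against CT-NK. Depth limits the lowest genes: Hpd had 1 and Slc5a1 2 estimated counts in their poorest libraries.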

Other observations

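Genes known from injured tubules did not follow the proximal tubule genes. Their summed level (Spp1, Clu, Lcn2, Vcam1, Havcr1 and 3 others) was 21167 and 27531 CPM in KO-LK replicates 3 and 4 and between 4509 and 10836 in the other 21 libraries. In those 2 libraries the bone matrix protein gene Spp1 was at 9058 and 14393 CPM, Clu at 11925 and 12952, and the iron-binding Lcn2 at 171 and 107, against at most 35.3 elsewhere for Lcn2. Havcr1, the classic injury marker of the proximal tubule, was at 30.7 CPM in KO-LK replicate 4 and at no more than 1.43 in the other 22 libraries. The same library had the highest KO-LK level of Slc13a1, 72.98 CPM, while its summed level of proximal tubule genes, 764 CPM, lay within the range of its group. Spp1, Clu and Lcn2 are also made by distal tubule cells.

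Markers of another nephron segment were high in other libraries. The thick ascending limb carrier Slc12a1 was at 301 CPM in KO-LK replicate 1 and 300 in KO-NK replicate 5, and the limb's abundant protein Umod at 1838 and 2324, with 1986 and 3437 CPM of proximal tubule genes. In CT-HK replicate 3, the poorest in proximal tubule genes (363 CPM), Slc12a1 was at 182 CPM and Umod at 1130.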
